A study of Homo sapiens with 60 samples.

Results

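HCC827 is an established human lung adenocarcinoma line that carries an activating deletion in the EGFR gene, and the data described here are its response to a single day of osimertinib, a kinase inhibitor that binds mutant EGFR covalently. The response was defined by the sample labels as 3 libraries from cells given 500 nM osimertinib for 24 h (acute) against 3 libraries from cells given the DMSO vehicle for 24 h. These are 6 of the 60 RNA-Seq libraries of the series. All 6 came from parental cells kept for 21 days in medium without drug before the 24 h of treatment, and both groups carry the same EGFR deletion. The other libraries are HCC827 cells after 21 days of osimertinib (drug-tolerant persisters, DTPs) and after drug washout, and the same arms in PC9, H1975 and HCC2935, which are EGFR-mutant lung cancer lines as well. The PC9, H1975 and HCC2935 libraries under DMSO and acute osimertinib, 6 per line, serve below only to show where HCC827 differs. A single cell line at 1 dose and 1 time stands for the mutation, so the values describe this line and not EGFR-mutant tumours at large. The labels call the replicates biological triplicates without saying how they were separated, so the p-values measure the spread between these samples. The libraries were made from mRNA with a TruSeq kit and sequenced as read pairs.

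EGFR is a receptor tyrosine kinase that signals through RAS and ERK to immediate-early and growth genes, and through PI3K and AKT to metabolism and survival. AKT keeps FOXO transcription factors out of the nucleus, and ERK holds itself in check by inducing phosphatases and Sprouty proteins, whose mRNAs are widely used as readouts of pathway activity. EGFR-mutant lung cells depend on this output for entry into the cell cycle.

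The 6 libraries held between 17.7 and 22.5 M estimated counts, and their 10 most abundant genes took between 6.67% and 8.32% of them. Of 19712 genes in the table, 13746 had enough counts to be tested. The first principal component carried 75.1% of the variance and separated the groups. DMSO replicate 2 lay furthest out on it, at -53.41 against -33.84 and -29.76 for the other two DMSO libraries, and results that rest on it are given without it as well. The lung epithelial markers summed to between 10007 and 12320 CPM (counts scaled by library size and TMM factors) under DMSO and between 8382 and 9666 CPM under osimertinib, and of its 9 genes SFTPB had too few counts to be tested and NKX2-1 was not analysed here. Of the fibroblast markers, COL1A2, COL3A1, DCN, PDGFRB and THY1 stayed under 1 CPM in every library, although the summed level of the list was 14.7 to 25.8 CPM under DMSO and 36.1 to 43.6 CPM under osimertinib. Blood markers other than CD68 were under 1 CPM (summed level 81.1 to 117.6 CPM under DMSO and 122.7 to 150.5 CPM with the drug), and the endothelial list summed to 1.23 to 2.28 CPM and 3.39 to 5.11 CPM. COL1A1 (0.96, edgeR adjusted p = 0.00803) and VWF (2.55, edgeR adjusted p = 0.00173) were called higher, and the part of other cells in the results was not tested.

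Osimertinib changed 5817 genes, 42.3% of those tested, at an adjusted p under 0.05 (edgeR's quasi-likelihood test, Benjamini-Hochberg adjustment over all genes tested). Of these, 2780 rose, 20.2% of the genes tested, and 3037 fell, 22.1%. A change of at least 2-fold was called for 1889 genes, 13.7% of those tested, of which 1101 rose and 788 fell. The acute and DMSO libraries did not overlap for 55.4% of the genes tested, so a gene without overlap was common in this comparison. The split between directions depended on the scaling: with library size alone, in place of TMM factors, 3406 genes rose and 2474 fell, and the median log2 fold change of all genes tested moved from 0.01 to 0.105. All fold changes below are relative to the TMM scaling, and in bulk RNA fewer cells with a transcript and less of it per cell cannot be told apart.

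**Figure D1:**
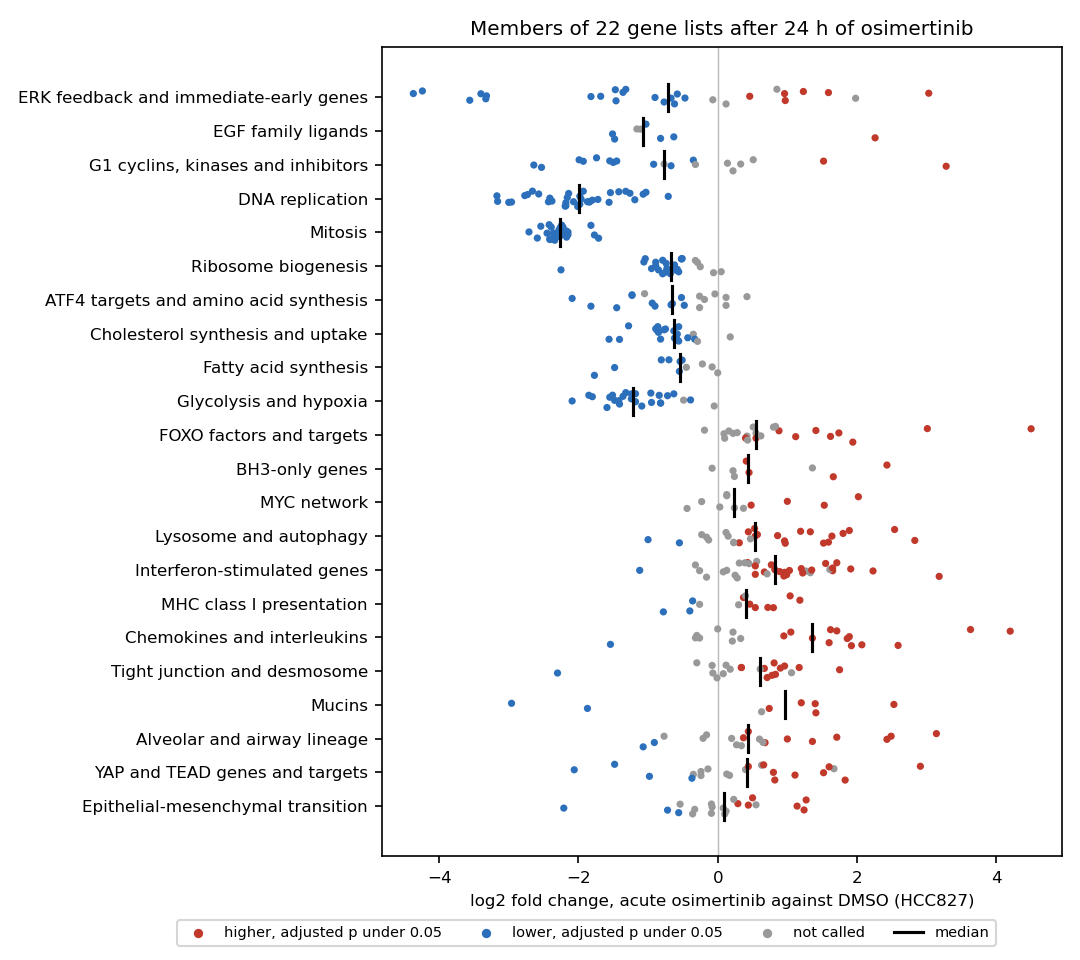
Log2 fold changes (x axis, acute osimertinib against DMSO in HCC827) of the tested members of 22 gene lists (y axis), with 1 point per gene, coloured by its call, and a black bar at each list's median. The medians of DNA replication and mitosis genes lay at -1.99 and -2.27, and that of the chemokine list at 1.36.

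The mRNA of the drug's own target was not called in the fit of the 6 libraries. EGFR stood at 8610, 9954 and 7586 CPM in the 3 DMSO libraries and at 7000, 7386 and 8023 CPM in the 3 acute libraries. The groups overlapped, and the log2 fold change was -0.22 (standard error, SE, 0.11, edgeR adjusted p = 0.143). It was called at -0.33 without DMSO replicate 3 (edgeR adjusted p = 0.0352), and at -0.24 in the fit of 24 libraries used further on to compare cell lines (edgeR adjusted p = 0.0368). ERBB3, the kinase-impaired partner that couples the family to PI3K, rose from 97.2, 91.1 and 124 CPM to 202, 276 and 224 CPM, a log2 fold change of 1.17 (SE 0.15, edgeR adjusted p = 0.000355). ERBB2, the ligand-less partner, rose less, by 0.59 (edgeR adjusted p = 0.0145), and its call was lost without acute replicate 2 (0.42, edgeR adjusted p = 0.0584). ERRFI1, a feedback inhibitor that binds the EGFR kinase, fell by 1.27 on the log2 scale, from 428.9 ± 87.5 to 178 ± 33.9 CPM (SD, n = 3 per group). Of 7 ERBB receptors and inhibitors tested these 3 were called, and 1 more fell without DMSO replicate 2 or 3. That share, 42.9%, lay near the 42.3% of all genes tested, so the count is no result about the list.

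Of 8 EGF family ligands tested, 5 fell and 1 rose. Amphiregulin (AREG) read 137, 143 and 151 CPM under DMSO and 42.9, 49.3 and 61.9 CPM under osimertinib, and epiregulin (EREG) 308, 332 and 306 CPM against 93.1, 101 and 137 CPM. Both fell without overlap, by 1.48 and 1.51 on the log2 scale (edgeR adjusted p = 5.14e-05 and 6.09e-05). HBEGF, the heparin-binding ligand, went the other way, from 5.29, 13.3 and 4.04 CPM to 33.3, 27.7 and 47.7 CPM, a log2 fold change of 2.26 (SE 0.40, edgeR adjusted p = 0.00208), which was 2.96 without DMSO replicate 2 (edgeR adjusted p = 6.57e-05). Among 17 other receptor tyrosine kinases 3 rose and 6 fell (52.9% called, against 42.3% of all genes tested). MET, the hepatocyte growth factor receptor, fell from 1126, 1067 and 1035 CPM to 629, 641 and 641 CPM (log2 fold change -0.76, edgeR adjusted p = 0.000127). EPHA2, an ephrin receptor, fell by 1.70 and AXL, the GAS6 receptor, by 0.98 on the log2 scale, whereas the insulin receptor INSR rose by 1.62 (edgeR adjusted p = 0.000557, 0.00287 and 0.00068).

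Most of the ERK feedback and immediate-early list fell. Of 28 members tested, 18 fell (12 without acute replicate 1 or 2) and 6 rose, with a median log2 fold change of -0.72. DUSP6, the phosphatase that inactivates ERK, read 17.4, 21.3 and 21.4 CPM under DMSO and 1.15, 0.79 and 3.67 CPM under osimertinib. SPRY4, a Sprouty inhibitor of RAS activation, read 4.98, 11.5 and 6.62 CPM against 0.164, 0.325 and 0.688 CPM. The ETS factor ETV4 read 29.5, 23.5 and 22.6 CPM against 1.42, 3.39 and 1.56 CPM. The groups did not overlap in any of these, and the log2 fold changes were -3.40, -4.24 and -3.56 (SEs 0.45, 0.52 and 0.31, edgeR adjusted p = 0.000442, 0.000264 and 4.26e-05). Acute replicate 3 was the highest acute library for DUSP6 and SPRY4, whose log2 fold changes without it were -4.37 and -4.92 (edgeR adjusted p = 2.95e-05 and 0.000485). The related factors ETV1 and ETV5 fell by 4.37 and 3.33 (ETV1 -5.22 without acute replicate 2, edgeR adjusted p = 0.00017), and FOSL1, an AP-1 subunit known to follow sustained ERK activity, fell from 389 ± 117 to 39.0 ± 13.7 CPM (log2 fold change -3.32, edgeR adjusted p = 3.45e-05). Smaller falls were called for the phosphatase DUSP5 (-1.46), the Spred inhibitors SPRED1 (-1.36) and SPRED2 (-1.47) and the pleckstrin-domain gene PHLDA1 (-1.32). SPRY2 (0.12, edgeR adjusted p = 0.631) and IER3 (-0.07, edgeR adjusted p = 0.666) were not called, and their groups overlapped.

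The 6 members that rose were all AP-1 or ATF factors, which bind DNA as FOS, JUN and ATF dimers: JUN, JUNB, JUND, FOSB, FOSL2 and ATF3. JUND read 33.0, 30.5 and 35.6 CPM under DMSO and 78.3, 83.0 and 71.0 CPM under osimertinib, a log2 fold change of 1.23 (edgeR adjusted p = 4.26e-05). FOSL2 rose by 0.96, from 232 ± 65.0 to 450 ± 26.1 CPM, and ATF3, a stress-induced factor, by 1.59 (edgeR adjusted p = 0.00224 and 0.000842). The calls of the other 3 did not hold when single libraries were left out. FOSB stood at 3.23, 2.97 and 34.0 CPM under osimertinib, and its log2 fold change of 3.03 (edgeR adjusted p = 0.0226) was 0.92 without acute replicate 3 (edgeR adjusted p = 0.0978). Its call was also lost without DMSO replicate 1 or 3 (edgeR adjusted p = 0.0695 and 0.0608). FOS and EGR1, the classic immediate-early genes, were highest in acute replicate 3 as well, at 50.3 and 300 CPM against 4.92 and 4.09 CPM, and 18.1 and 8.41 CPM, in the other acute libraries. Neither was called (edgeR adjusted p = 0.114 and 0.571), and without that library EGR1 was lower under osimertinib (log2 fold change -2.20, edgeR adjusted p = 0.0372). JUN (0.97, edgeR adjusted p = 0.0351) lost its call when any library but DMSO replicate 2 was left out (edgeR adjusted p = 0.0575 to 0.121), and JUNB (0.46, edgeR adjusted p = 0.0231) without DMSO replicate 2 or 3 or acute replicate 1 or 3 (edgeR adjusted p = 0.0538 to 0.0945). The number of members that rose was 3 without DMSO replicate 3 or acute replicate 3. Of 24 tested genes of the MAPK pathway core, from RAS to ERK and its adaptors, 7 rose and 5 fell (3 without acute replicate 1). Their median was 0.03, and the RAS-like GTPase MRAS rose by 2.66 (edgeR adjusted p = 0.00148). The share called, 50%, lay near the 42.3% of all genes tested, so this count is no result about the core.

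**Figure D2:**
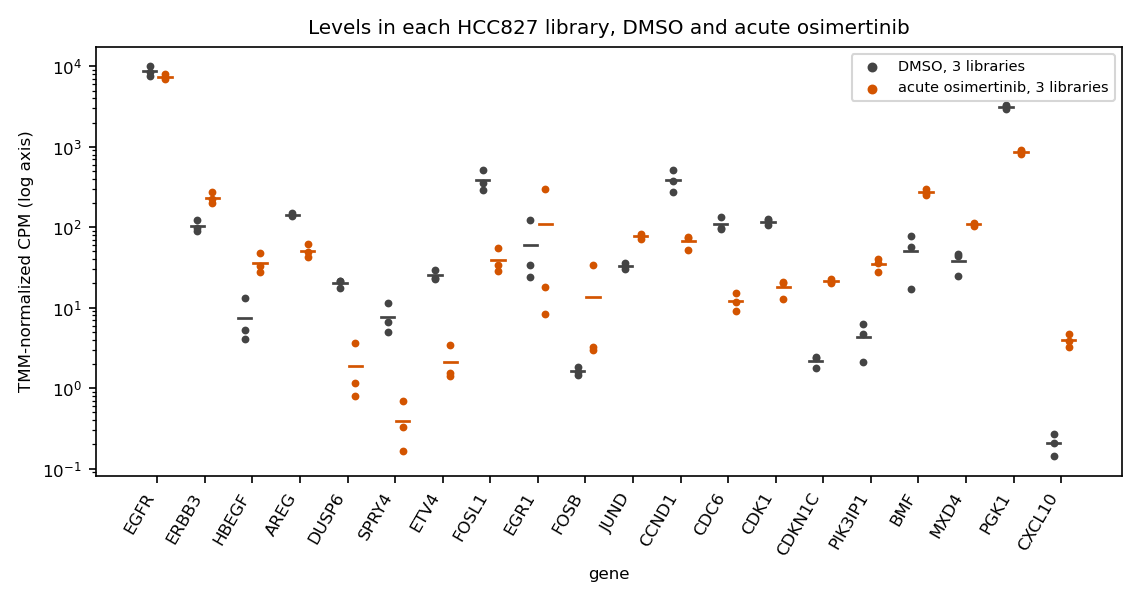
TMM-normalized CPM (log axis) of 20 genes (x axis) in each HCC827 library, with 3 DMSO and 3 acute osimertinib libraries per gene and a bar at each mean. EGFR overlaps between the groups, DUSP6 and SPRY4 lie far lower under osimertinib, and for EGR1 and FOSB 1 acute library lies far above the other two.

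Cell cycle genes fell throughout. All 36 DNA replication genes and all 30 mitosis genes tested were called lower, with median log2 fold changes of -1.99 and -2.27 against 0.01 for all genes tested, and both counts stayed complete when any of the 6 libraries was left out. CDC6, which loads the replicative helicase, read 98.4, 132 and 96.4 CPM under DMSO and 8.97, 11.9 and 15.4 CPM under osimertinib. Its log2 fold change of -3.17 (SE 0.21, edgeR adjusted p = 9.12e-06) was the lowest of the replication list. It was followed by the replication initiator MCM10 (-3.16), the checkpoint mediator CLSPN (-3.00) and the ribonucleotide reductase subunit RRM2 (-2.96). CDK1, the kinase that drives mitotic entry, read 126, 105 and 121 CPM against 20.3, 12.9 and 20.6 CPM, a log2 fold change of -2.71 (SE 0.18, edgeR adjusted p = 9.55e-06). Its cyclin partner CCNA2 (-2.59), the kinetochore gene NUF2 (-2.54) and the mitotic kinase AURKB (-2.45) were the next lowest. DTL, a substrate receptor that marks proteins for destruction in S phase, and CENPP, a centromere protein, were among the 15 lowest genes of all by the rule for named genes, at -3.26 and -3.33.

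Among 19 G1 regulators tested, 11 fell and 2 rose, and 4 rose without DMSO replicate 2. Cyclin D1 (CCND1), through which growth factors start the cycle, read 378, 513 and 276 CPM under DMSO and 51.4, 74.5 and 75.0 CPM under osimertinib, a log2 fold change of -2.53 (SE 0.23, edgeR adjusted p = 5.42e-05). E2F1, the factor freed by cyclin-dependent kinases, fell by 2.64 and the pocket protein gene RBL1 by 1.99 (edgeR adjusted p = 2.07e-05 and 5.72e-05). CDKN1C, which encodes the kinase inhibitor p57, rose from 2.44, 1.76 and 2.36 CPM to 22.6, 21.1 and 20.1 CPM (log2 fold change 3.28, SE 0.19, edgeR adjusted p = 5.66e-06).

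The promoters of these lists hold different known elements, and 4 are shown as examples that carry them, those of the 2 lowest genes of each list whose window holds the element searched. The windows of MCM10 and RRM2 held no E2F form and those of CCNA2 and AURKB no CHR form, although these genes fell about as much. They are RefSeq windows (build GRCh38.p14) from 250 bases before to 50 bases after the annotated start, 5′ to 3′ on the gene's strand. In the promoters of CDK1 (chr10:60778081-60778380, plus strand) and NUF2 (chr1:163321704-163322003, plus strand), capitals mark the cell cycle genes homology region (CHR), TTTGAA or its variant TTTAAA, on either strand. In the promoters of CDC6 (chr17:40287629-40287928, plus strand) and CLSPN (chr1:35769929-35770228, minus strand), capitals mark any of the E2F forms TTTGGCGC, TTTCCCGC and TTTCGCGC, on either strand.
CDK1: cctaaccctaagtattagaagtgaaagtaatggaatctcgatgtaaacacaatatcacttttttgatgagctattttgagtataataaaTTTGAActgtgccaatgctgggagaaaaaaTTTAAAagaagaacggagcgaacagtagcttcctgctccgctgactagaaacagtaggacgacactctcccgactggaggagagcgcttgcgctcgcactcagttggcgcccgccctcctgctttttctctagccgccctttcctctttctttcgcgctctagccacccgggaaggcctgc
NUF2: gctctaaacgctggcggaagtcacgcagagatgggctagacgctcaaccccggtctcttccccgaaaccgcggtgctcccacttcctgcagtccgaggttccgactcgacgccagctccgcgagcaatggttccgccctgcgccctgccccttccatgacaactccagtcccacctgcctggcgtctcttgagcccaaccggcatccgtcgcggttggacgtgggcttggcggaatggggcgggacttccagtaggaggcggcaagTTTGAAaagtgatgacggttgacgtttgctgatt
CDC6: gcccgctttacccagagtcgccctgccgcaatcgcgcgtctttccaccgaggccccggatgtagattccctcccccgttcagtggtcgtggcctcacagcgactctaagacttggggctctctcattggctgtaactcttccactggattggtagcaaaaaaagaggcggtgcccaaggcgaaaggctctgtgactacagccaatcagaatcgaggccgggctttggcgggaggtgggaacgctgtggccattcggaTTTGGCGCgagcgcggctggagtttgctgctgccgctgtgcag
CLSPN: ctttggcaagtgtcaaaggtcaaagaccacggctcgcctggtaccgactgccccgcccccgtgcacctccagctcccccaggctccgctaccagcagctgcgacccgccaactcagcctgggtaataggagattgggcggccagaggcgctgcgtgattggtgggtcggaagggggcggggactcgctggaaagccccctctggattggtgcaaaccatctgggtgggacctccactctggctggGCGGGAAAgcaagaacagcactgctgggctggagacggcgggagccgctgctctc
Counted from the annotated start, CDK1 has its matches at -161 and -131, NUF2 at 17, CDC6 at 8 and CLSPN at -5. A CHR form was present in 21 of the 25 mitosis promoters at hand (84.0%), in 3 of 32 replication promoters (9.38%) and in 15.9% of the promoters of all genes tested. An E2F form was present in 18 of 32 replication promoters (56.2%), in 3 of 25 mitosis promoters (12%) and in 4.59% of all. These are matches of letters and say nothing of which factor was bound.

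Some genes that FOXO factors are known to induce were higher. Of 23 FOXO factors and targets tested, 10 rose and none fell (median log2 fold change 0.55, and 13 genes not called). Of all genes tested 20.2% rose. The share called, 43.5%, lay near the 42.3% of all genes tested, so the number called is no result about the list. PIK3IP1, an inhibitor of PI3K, read 6.22, 2.09 and 4.67 CPM under DMSO and 36.4, 40.0 and 28.0 CPM under osimertinib, a log2 fold change of 3.01 (SE 0.33, edgeR adjusted p = 0.000145). The repressor BCL6 rose by 1.94 and FOXO4 itself by 1.74 (edgeR adjusted p = 7.11e-05 and 0.00261). SELENOP, a selenium transport protein, had 2 counts in the 3 DMSO libraries together and 52 in the acute libraries, a ratio of 26.4 (95% counting interval 6.94 to 223, from exact binomial bounds that cover counting error only).

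Among 8 BH3-only genes, the triggers of mitochondrial cell death, 4 rose and none fell, and 2 rose without acute replicate 2. BMF read 56.7, 17.1 and 78.3 CPM under DMSO against 269, 297 and 254 CPM with the drug. It had the largest rise of the list, a log2 fold change of 2.43 (SE 0.42, edgeR adjusted p = 0.0018), and BBC3 followed with 1.66 (edgeR adjusted p = 0.000484). HRK was at 1.36 (edgeR adjusted p = 0.0742). Of 7 anti-apoptotic BCL2 genes and effectors tested, BOK rose by 0.88 (edgeR adjusted p = 0.000839) and 1 fell. The gene that fell was not called without DMSO replicate 2 or any 1 acute library. The share called was 50% of the BH3-only list and 28.6% of the BCL2 list. Both lay near or below the 42.3% of all genes tested, so these counts are no result about the lists. In the MYC network, MYC itself stood at 364, 416 and 286 CPM under DMSO against 462, 419 and 496 CPM with the drug. Every acute library was above every DMSO library, and the log2 fold change of 0.37 was not called (edgeR adjusted p = 0.0546), but was 0.50 without DMSO replicate 2 (edgeR adjusted p = 0.0117). The MYC antagonists MXD4 (1.53), MXI1 (1.00) and MNT (0.48), which compete for MAX, rose, as did MYCL (2.02, edgeR adjusted p = 0.00121).

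The biosynthetic lists fell. Of 26 ribosome biogenesis genes 21 fell and none rose (median -0.67), led by TCOF1, which promotes rRNA transcription, at 249, 316 and 206 CPM under DMSO and 54.9, 50.3 and 57.3 CPM under osimertinib (log2 fold change -2.25, edgeR adjusted p = 1.2e-05). The nucleolar genes NOLC1 (-1.06), PNO1 (-1.04) and DKC1 (-0.95) followed. Of 19 ATF4 targets and amino acid enzymes tested 11 fell and none rose, and 1 rose without DMSO replicate 1 or 2. The share called was 57.9%, against 42.3% of all genes tested. DDIT4, an inhibitor of mTORC1 induced by stress and hypoxia, fell from 943, 535 and 642 CPM to 210, 142 and 147 CPM (-2.09, edgeR adjusted p = 0.000129), and the serine synthesis genes PSAT1 and PHGDH fell by 1.82 and 1.45.

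Of 21 cholesterol genes 18 fell (median -0.63), among them the sterol sensor INSIG1 (-1.41, edgeR adjusted p = 0.00115) and the sterol transporter STARD4 (-1.28, edgeR adjusted p = 0.00137). Of 11 fatty acid synthesis genes 7 fell, with the elongase ELOVL6 at -1.77 (edgeR adjusted p = 2.52e-05). SCD, the desaturase, read 2168, 1430 and 1652 CPM under DMSO against 786, 701 and 400 CPM with the drug (-1.48, edgeR adjusted p = 0.0013). No member of either list rose.

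Of 26 glycolysis and hypoxia genes tested 24 fell, with a median of -1.21, and none rose. PGK1, which makes ATP in glycolysis, read 3226, 3280 and 2912 CPM under DMSO against 911, 812 and 897 CPM with the drug, a log2 fold change of -1.85 (SE 0.09, edgeR adjusted p = 4.38e-06). LDHA, which turns pyruvate into lactate, read 2196, 2652 and 2266 CPM against 691, 602 and 754 CPM (-1.80, edgeR adjusted p = 8.85e-06). The replicates of each group lay close together and the groups far apart. The glucose transporter SLC2A1 fell by 1.59 and PFKFB4, a regulator of glycolytic flux, by 2.09 (edgeR adjusted p = 0.000234 and 2.6e-05). Glycolytic enzymes were also among the most abundant mRNAs of these cells. Per transcript length, GAPDH fell from 9601 ± 748 to 5707 ± 548 TPM and ENO1 from 3335 ± 349 to 1646 ± 120 TPM (TPM, a level scaled by transcript length and library, SD, n = 3 per group).

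Of 27 lysosome and autophagy genes 17 rose and 2 fell (median 0.54). TP53INP2, a scaffold for autophagosome formation, read 7.05, 7.55 and 8.07 CPM under DMSO and 50.1, 62.8 and 48.2 CPM under osimertinib, a log2 fold change of 2.83 (SE 0.15, edgeR adjusted p = 4.38e-06). TP53INP1 (2.54), the autophagy receptor gene CALCOCO1 (1.89) and the lysosomal protease CTSS (1.80) rose with it.

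Of 37 interferon-stimulated genes 21 rose, OAS3 fell and 15 were not called (median 0.82, and 59.5% called against 42.3% of all genes tested). GBP2, an interferon-induced GTPase, read 26.0, 17.1 and 45.3 CPM under DMSO against 135, 151 and 130 CPM with the drug (log2 fold change 2.23, edgeR adjusted p = 0.000371). OAS2, a sensor of double-stranded RNA, rose by 1.91, IFIT2 by 1.71 and RSAD2 by 3.18, the last from levels under 0.1 CPM to at most 0.734 CPM. Of 13 genes of MHC class I presentation 7 rose and 3 fell, the largest rises being those of TAPBPL (1.18) and TAPBP (1.04), which help load peptides. Of 21 chemokine and interleukin genes tested 13 rose and 1 fell, and the median was 1.36. The gene that fell, CSF2, was not called without DMSO replicate 2 or acute replicate 1 or 2. CXCL10 and CXCL11 are ligands of the chemokine receptor CXCR3. CXCL10 read 0.207, 0.142 and 0.272 CPM under DMSO and 3.88, 3.25 and 4.68 CPM under osimertinib. CXCL11 read 0.259, 0.237 and 0.635 CPM against 4.98, 3.49 and 5.87 CPM. CXCL10 and CXCL11 rose by 4.20 and 3.63 on the log2 scale (edgeR adjusted p = 9.6e-05 and 0.000336) and stayed low in absolute terms. CXCL11 was at 4.22 without DMSO replicate 3 (edgeR adjusted p = 0.000347). CXCL8, a neutrophil attractant, rose by 2.07, from 4.89 ± 1.06 to 20.6 ± 3.34 CPM (edgeR adjusted p = 0.000103). In the gp130 and STAT3 axis 3 of 14 genes rose, STAT3 (0.60), JAK1 (0.37) and SOCS3 (0.68), and none fell. The share called was 21.4%, against 42.3% of all genes tested, so this count is no result about the axis. Both MHC class II genes tested and 2 of 5 APOBEC3 deaminase genes rose. The APOBEC3 share, 40%, lay near the 42.3% of all genes tested, so that count is no result about the list. The class II count was 0 without acute replicate 2 and 1 without acute replicate 1 or 3, and the APOBEC3 count was 1 without acute replicate 2, with APOBEC3D (2.11, edgeR adjusted p = 0.00648) at most at 2.52 CPM.

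Epithelial genes were higher in part. Of 21 tight junction and desmosome genes tested 11 rose and 1 fell (median 0.61), and 2 fell without DMSO replicate 3. CLDN1, a barrier claudin, read 32.1, 38.4 and 25.6 CPM under DMSO and 97.1, 102 and 124 CPM under osimertinib (1.75, edgeR adjusted p = 5.38e-05), and the desmosomal gene PERP rose by 1.17, whereas CLDN2, a pore-forming claudin, fell by 2.30 to under 0.3 CPM. Of 11 keratins tested 3 rose and 4 fell. The abundant KRT8 and KRT18 fell, KRT18 from 3082, 2589 and 2369 CPM to 1261, 1064 and 1319 CPM (-1.14, edgeR adjusted p = 0.000141) and KRT8 by 0.96. KRT4 rose by 2.99, from 1.36 ± 0.421 to 10.9 ± 3.20 CPM. CDH1, E-cadherin, was at 984, 1097 and 1080 CPM against 1196, 1319 and 1350 CPM. Its log2 fold change of 0.29 (edgeR adjusted p = 0.0277) lost its call without DMSO replicate 1 or acute replicate 2 or 3 (edgeR adjusted p = 0.095 to 0.11). Of 19 alveolar and airway genes tested 9 rose and 2 fell, and 5 rose without acute replicate 2. NAPSA, an aspartic protease of alveolar type II cells, rose from 50.2, 29.1 and 82.5 CPM to 105, 184 and 127 CPM (1.36, edgeR adjusted p = 0.0103). SFTPA2, a surfactant protein, rose by 3.14 (edgeR adjusted p = 0.0152), from 0.155, 0 and 1.13 CPM to 3.83, 3.86 and 4.04 CPM. Its size rested on single DMSO libraries, being 5.58 without DMSO replicate 3 (edgeR adjusted p = 0.000723) and 2.76, and not called, without DMSO replicate 1 (edgeR adjusted p = 0.0533). Of 8 mucins tested 5 rose and 2 fell, but between 1 and 3 rose without DMSO replicate 1 or 2 or acute replicate 1 or 2, and 1 fell without DMSO replicate 3 or acute replicate 1 or 3. MUC20 read 9.48, 4.84 and 16.3 CPM against 48.0, 80.9 and 49.0 CPM (2.53, edgeR adjusted p = 0.000864). Among 16 epithelial KLF and differentiation factors 8 rose and 1 fell (none without acute replicate 1 or 2). KLF11, a repressor of growth genes, was at 21.3, 22.5 and 20.2 CPM against 41.6, 40.6 and 47.5 CPM (1.02, edgeR adjusted p = 0.000196). The shares called were 57.1% of the tight junction and desmosome list, 63.6% of the keratins and 57.9% of the alveolar and airway list. They were 87.5% of the mucins and 56.2% of the KLF and differentiation factors, against 42.3% of all genes tested.

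Of 20 epithelial-mesenchymal transition genes tested 6 rose and 3 fell (median 0.09), and 2 or 3 rose without DMSO replicate 1 or any 1 acute library. Its transcription factors did not move one way. SNAI1 fell from 8.60, 10.5 and 9.16 CPM to 1.81, 1.58 and 2.71 CPM (-2.21, edgeR adjusted p = 0.000261). SNAI2 rose by 1.27 (edgeR adjusted p = 0.0323), from 8.55, 25 and 7.25 CPM to 36.5, 26.5 and 35.2 CPM, and lost its call without any library but DMSO replicate 2 (edgeR adjusted p = 0.0502 to 0.112), without which it was 2.05 (edgeR adjusted p = 6.51e-05). Fibronectin (FN1) rose by 1.14, from 267 ± 43.4 to 589 ± 112 CPM (edgeR adjusted p = 0.000509). Of 22 YAP and TEAD genes and targets 9 rose and 4 fell (59.1% called, against 42.3% of all genes tested). YAP1 itself was at 229, 237 and 220 CPM under DMSO against 213, 195 and 214 CPM with the drug, which was not called (-0.14, edgeR adjusted p = 0.216). ANKRD1, a target of YAP, rose by 2.91 (edgeR adjusted p = 8.83e-06), whereas NT5E, which encodes CD73, fell by 2.06, from 197 ± 7.07 to 47.2 ± 4.61 CPM (edgeR adjusted p = 4.38e-06). CCN2, another target, was at 9.14, 8.97 and 52.6 CPM under osimertinib, again with acute replicate 3 apart, and was not called (edgeR adjusted p = 0.0887), but was called without DMSO replicate 2 (2.42, edgeR adjusted p = 0.0363). Of 20 integrin and laminin genes 5 rose and 4 fell. The integrin subunit ITGB8 rose by 3.28 and ITGA6 fell by 1.37 (edgeR adjusted p = 3.99e-05 and 6.65e-05). Of 24 WNT and Notch genes tested 5 rose and 3 fell, and 2 or 3 rose when any library but DMSO replicate 3 was left out. Of 20 NRF2 targets, the antioxidant genes, 4 rose and 6 fell, among them the glutathione synthesis gene GCLM (-1.43, edgeR adjusted p = 0.000759). The shares called were 45% of the epithelial-mesenchymal transition list and 45% of the integrin and laminin list. They were 33.3% of the WNT and Notch list and 50% of the NRF2 list. All 4 lay near or below the 42.3% of all genes tested, so these counts are no result about the lists.

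The largest changes in the genome lay partly outside these lists. The lowest was TNFRSF6B, a soluble decoy receptor for death ligands, at 92.1, 44.5 and 66.7 CPM under DMSO and 2.52, 1.67 and 3.94 CPM under osimertinib (-4.64, edgeR adjusted p = 1.85e-05). Its exons overlap those of a read-through transcript with RTEL1 and of ARFRP1 on the opposite strand, so its reads are not unique to it. FGFBP1, a carrier of fibroblast growth factors, read 23.5, 21.7 and 18.2 CPM against 0.93, 1.25 and 1.93 CPM (-3.93, edgeR adjusted p = 1.09e-05). The 15 lowest also held MYEOV (-4.45, and -5.35 without acute replicate 3, edgeR adjusted p = 0.000417), the Fanconi anaemia gene FANCB (-3.45) and the glycoprotein hormone STC1 (-3.36).

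At the other end, among called genes of at least 1 CPM whose groups did not overlap, NPR1, the receptor for atrial natriuretic peptide, read 0.363, 0.285 and 0 CPM under DMSO and 11.3, 11.2 and 12.1 CPM under osimertinib (5.73, SE 0.54, edgeR adjusted p = 6.14e-05, and 5.12 without DMSO replicate 3, edgeR adjusted p = 2.36e-05). THSD7A, a thrombospondin-domain gene, had 1 count under DMSO and 164 under osimertinib, a ratio of 166 (95% counting interval 29.4 to 6607), and DISP3 had 2 and 129 counts, a ratio of 65.4 (17.7 to 546). FILIP1L rose from 5.11 ± 1.4 to 68.9 ± 9.84 CPM (3.76, edgeR adjusted p = 4.56e-06), and VTCN1, the immune checkpoint ligand B7-H4, rose by 3.89, to 14.9 ± 3.01 CPM. The placental and germ cell alkaline phosphatases ALPP and ALPG rose by 2.81 and 4.48 (edgeR adjusted p = 0.000238 and 8.81e-05). Their sequences are nearly identical, so the division of reads between them is uncertain, and both were highest in acute replicate 3 (131 and 24.0 CPM). Among the genes of highest TPM, FTH1, which stores iron, rose by 0.68, OS9, an endoplasmic reticulum lectin, by 0.78, and SEC61G, a translocon subunit, fell from 8417 ± 943 to 3263 ± 236 TPM (log2 fold change -1.44, edgeR adjusted p = 1.38e-05).

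The HCC827 response was then set against the mean response of PC9, H1975 and HCC2935 in a fit of 24 libraries. The difference was called for 2322 of 15970 genes, 14.5% of those tested. HCC827 had the higher log2 fold change for 1039 of them (6.51% of those tested) and the lower for 1283 (8.03%). Of the 27 glycolysis and hypoxia genes in this test, 20 fell more in HCC827 and none fell less. Their median log2 fold change in this fit was -1.20 in HCC827, against -0.56 in PC9, -0.40 in H1975 and -0.32 in HCC2935. PFKFB4 differed by -2.10 (SE 0.266, edgeR adjusted p = 3.25e-05), SLC2A1 by -1.81 and PGK1 by -1.01. Untreated, PGK1 averaged 3209 CPM in HCC827 against 513 to 1270 CPM in the other lines (scaled over all 24 libraries). SLC2A1 averaged 527 CPM against 234 to 346 CPM, and PFKFB4 36.4 CPM against 5.71 to 60.8 CPM. After osimertinib PGK1 was at 881 CPM against 309 to 690 CPM, SLC2A1 at 173 CPM against 283 to 379 CPM and PFKFB4 at 8.44 CPM against 5.01 to 54.6 CPM. The part of the starting level was not tested. With any 1 HCC827 library left out, between 16 and 20 members were called lower than in the other lines, and 3 were called higher in a comparison with PC9 alone. In HCC827 SLC2A1 stood at 515 ± 120 CPM in the vehicle against 171 ± 32.6 CPM with the drug, and its log2 fold changes in PC9, H1975 and HCC2935 were -0.07, 0.28 and 0.40.

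Mitosis genes also fell more in HCC827, 16 of 30, with a median of -2.28 against -1.46 in PC9, -2.17 in H1975 and -1.37 in HCC2935. None of them was called against H1975 alone, 6 were called without acute replicate 2, and only 1 in a fit of all 60 libraries. For DNA replication 2 genes differed in each direction among 36, with 1 above without DMSO replicate 3 or acute replicate 2 and 1 below without DMSO replicate 1 or acute replicate 2. That share, 11.1%, lay below the 14.5% of all genes tested, so this count is no result about the list. The ribosome biogenesis genes fell less in HCC827 for 11 of 26, with medians of -1.55 in PC9, -1.08 in H1975 and -0.92 in HCC2935 beside -0.69. This count depended on the libraries, at 19 without DMSO replicate 2 and 3 to 5 without DMSO replicate 1 or 3 or acute replicate 1 or 3. Against H1975 alone 2 genes were called above, and against HCC2935 alone 2 above and 3 below. ERK feedback and immediate-early genes had a higher log2 fold change in HCC827 for 10 members and a lower one for 1, with medians of -1.67, -1.33 and -2.59 in PC9, H1975 and HCC2935 beside -0.79. None was called against H1975 alone. DUSP6 had log2 fold changes of -5.99, -3.54 and -5.50 in those lines, and differed by 1.59 (SE 0.476, edgeR adjusted p = 0.0279). This difference rested on acute replicate 3: without it DUSP6 differed by 0.61 and was not called (edgeR adjusted p = 0.504), nor was it without DMSO replicate 1 (1.5, edgeR adjusted p = 0.0694). JUN, with log2 fold changes of -1.44 in PC9, 0.13 in H1975 and -1.16 in HCC2935, differed by 1.77 (edgeR adjusted p = 0.002), and MYC by 1.47 (edgeR adjusted p = 0.00153), with log2 fold changes of -1.17, -0.61 and -1.57 in the other lines.

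**Figure D3:**
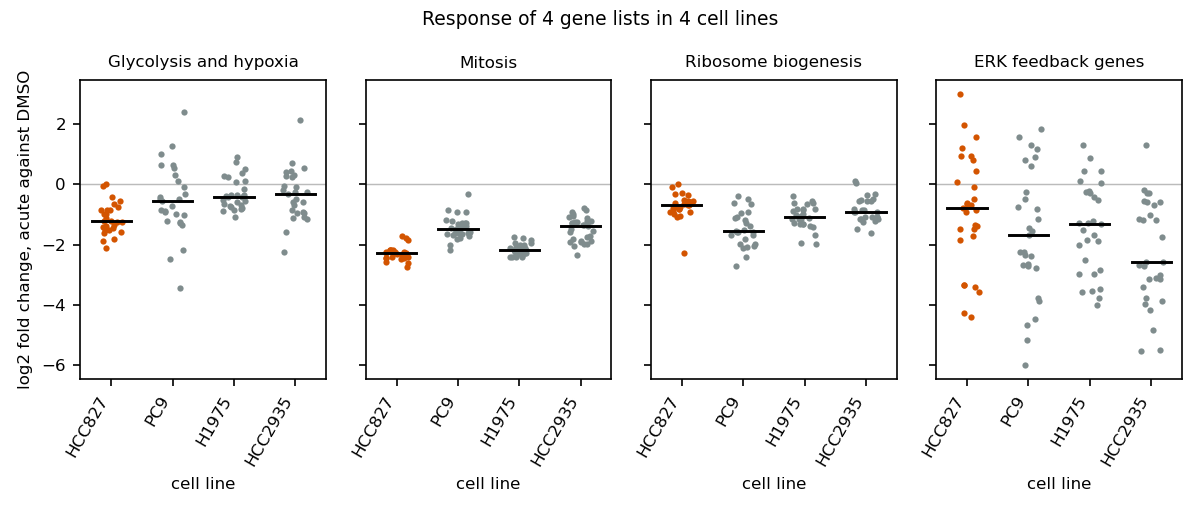
Log2 fold changes of acute osimertinib against DMSO (y axis) for the members of 4 gene lists in 4 cell lines (x axis), with 1 point per gene and a bar at the median, from the fit of 24 libraries. Glycolysis and hypoxia genes lie lowest in HCC827, and the ERK feedback genes lie lowest in HCC2935.

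Several genes with large differences were of low level in 1 line or another, so levels are given with them. HBEGF rose in HCC827 from 7.73 to 36.5 CPM (means of 3 libraries, scaled over all 24), while it was at 60.5 and 2.86 CPM in PC9 without and with osimertinib, at 12.6 and 22.3 CPM in H1975 and at 13.6 and 3.71 CPM in HCC2935. The difference from the mean of the other lines was 4.07 (edgeR adjusted p = 6.7e-05), and 4.78 without DMSO replicate 2 (edgeR adjusted p = 4.25e-05). NPR1 (5.80), THSD7A (5.52), the glucosidase MGAM (4.19) and the bile acid enzyme BAAT (3.86) were also among the 6 highest. NPR1 was at 5.19 without DMSO replicate 3, and MGAM at 5.02 without DMSO replicate 1 and 3.57 without DMSO replicate 3. THSD7A had its only DMSO count in DMSO replicate 1. Without that library its HCC827 vehicle group was at 0, so its fitted 7.91 depends on the prior count and carries no size. NPR1 was at 2.94 and 8.14 CPM in H1975, and SFTPA2 at most at 0.438 CPM in any other line. MGAM was at 0.222 and 2.7 CPM in HCC827 without and with osimertinib. In PC9 it was at 10.6 and 14.8 CPM, in H1975 at 4.02 and 4.42 CPM and in HCC2935 at 107.6 and 21.8 CPM. THSD7A was at 0.0176 and 2.66 CPM in HCC827. In PC9 it was at 3.02 and 1.58 CPM, in H1975 at 1.24 and 4.98 CPM and in HCC2935 at 0.0288 and 0.355 CPM. BAAT was at 0.657 and 5.46 CPM in HCC827 and at 9.88 and 24.1 CPM in HCC2935. In PC9 and H1975 it was at most at 0.241 CPM. At the low end, STC1 (-3.61, edgeR adjusted p = 1.46e-06) fell from 39.3 to 3.79 CPM in HCC827 and was at 52.2 and 29.4 CPM in H1975, but under 5 CPM in PC9 and HCC2935. The kinase gene SGK2 (-3.61) and the stress keratin KRT16 (-3.39) also lay low. SGK2 was at 6.69 and 3.54 CPM in HCC827 without and with osimertinib, and at most at 1.18 CPM in the other lines. Within HCC827 alone SGK2 was not called, so its difference rests in part on very low levels elsewhere. Within HCC827, KRT16 was called lower (-1.84, edgeR adjusted p = 0.0159), but not without DMSO replicate 3 or acute replicate 2 or 3 (edgeR adjusted p = 0.0529 to 0.0606). KRT16 was at 4.96 and 1.37 CPM in HCC827 without and with osimertinib. In PC9 it was at 11.1 and 117 CPM, in H1975 at 3.22 and 13.4 CPM and in HCC2935, where it was lower with the drug too, at 29.4 and 15.7 CPM. PTGS1, which encodes cyclooxygenase-1, fell in HCC827 from 56.6 to 13.4 CPM and was listed at 0 in all PC9 DMSO libraries. PC9 was likewise at 0 for H3C14 and AC011462.1, and SFTPA2, which the rule also took, was at 0 in treated H1975, so the fitted differences of these 4 genes depend on the prior count and carry no size. DDIT4, named above, differed by -3.13 (SE 0.294, edgeR adjusted p = 9.76e-07): it stood at 721 CPM in untreated HCC827 against 42.5 to 96 CPM in the other untreated lines, and at 168 CPM after osimertinib against 114 to 154 CPM.

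As a description with no test, the acute levels can be set beside the other HCC827 arms (CPM scaled over 15 libraries, mean ± SD, n = 3 each). DUSP6 was at 20 ± 2.26 CPM in the vehicle, 1.87 ± 1.58 CPM in the acute arm and 15.8 ± 9.29 CPM in DTPs. CDK1 was at 118 ± 10.9, 18.0 ± 4.45 and 41.5 ± 11.9 CPM in the same order. PGK1 was at 3135 ± 196, 875 ± 57.0 and 850 ± 105 CPM, so that DUSP6 and CDK1 were lowest in the acute arm and PGK1 stood at a like level in DTPs. PIK3IP1 was at 4.32 ± 2.08, 34.9 ± 6.07 and 28.7 ± 4.47 CPM, and HBEGF at 7.53 ± 5.01, 36.3 ± 10.4 and 93.6 ± 23.3 CPM.

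**Figure D4:**
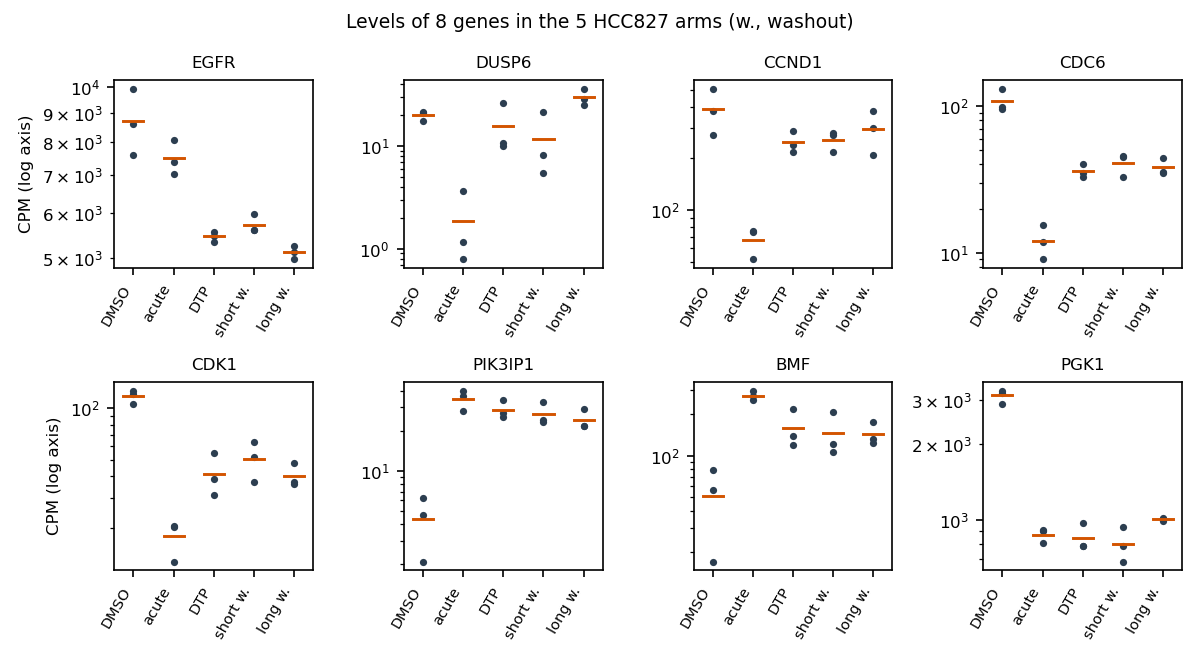
TMM-normalized CPM (y axis, log scale) of 8 genes in the 5 HCC827 arms (x axis: DMSO, acute, DTP, short and long washout), with 3 libraries per arm and a bar at the mean. EGFR has its highest mean under DMSO, 8704 CPM, and DUSP6, CCND1, CDC6 and CDK1 have their lowest in the acute arm.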

How the data were processed

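RNA-Seq was measured in HCC827 cells under DMSO and under acute osimertinib, 3 libraries each. The authors deposited estimated counts per gene, which are not whole numbers, and a table of log2 TPM in which a pseudocount of 0.01 sets a TPM of 0 to -6.64. The submitters' processing notes name HISAT2 2.1.0, Salmon 0.8.2 and hg38, without the role of each. Whether strand was used in counting is not given in the sources used here, and of 207 genes that the naming rule takes 73 overlap an exon on the opposite strand and 29 one on the same strand (GENCODE 29).

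Estimated counts were rounded and tested with edgeR 4.0.16 in R 4.3.3 (TMM, filterByExpr, quasi-likelihood test, Benjamini-Hochberg adjustment over 13746 genes). The difference from the other lines was the HCC827 effect minus the mean effect of PC9, H1975 and HCC2935 in 24 libraries. limma 3.58.1 on log2 TPM, DESeq2 1.42.0, other size factors and filters, a replicate block, other sets of samples and the removal of each library were the alternatives. The procedure was checked on simulated data with few changed genes, as many up as down, and the same spread for all genes. That check does not cover a response as broad as this one. Library totals of 17.7 to 22.5 M limit the precision of genes under about 1 CPM.

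Named genes were drawn from the 15 highest and 15 lowest called fold changes among genes averaging 1 CPM or more whose groups do not overlap. Up to 4 members of each list by size of change and the ERK list were further sources. So were the 6 highest and 6 lowest differences and the 10 called genes of highest TPM. Not every gene that this rule takes is named. OAS3, CSF2 and the genes of the closing section were named after their values were seen. The members and lists were chosen with earlier results of these data known. Promoters were matched by symbol to RefSeq for 10795 of 13746 genes tested, and motifs were searched on both strands.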

Additional observations from a re-analysis of the deposited data

Results flagged for a closer look

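Of the 149 genes named here with a tested difference, 65 responded differently in HCC827 than in the mean of PC9, H1975 and HCC2935 by the edgeR test of that difference (adjusted p under 0.05), 34 with a higher and 31 with a lower log2 fold change. The values below are the HCC827 log2 fold change minus the mean of the other lines. A difference was called for 14.5% of all genes tested, and 12 of the genes were named for this difference, so their number is no measure of the response.

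ERK feedback and immediate-early genes with a higher value were FOSB (3.71), JUN (1.77), DUSP6 (1.59), IER3 (1.31), PHLDA1 (1.07), SPRY2 (1.04), SPRED1 (0.97) and FOSL2 (0.69). The largest other higher values were NPR1 (5.80), THSD7A (5.52), MGAM (4.19), HBEGF (4.07), BAAT (3.86), ANKRD1 (3.77), CXCL8 (3.55), ITGB8 (2.70) and CSF2 (2.45). Some rest on means near 0, so their sizes are uncertain. THSD7A was at 0.0176 CPM in untreated HCC827, and BAAT and CSF2 at 0.0432 and 0.00933 CPM in treated PC9. CSF2 fell in HCC827 too, from 3.14 to 1.06 CPM, but fell more in the other lines. Smaller ones were FILIP1L (1.97), CDKN1C (1.59), TP53INP2 (1.58), PCDHGB7 (1.48), MYC (1.47), CLDN1 (1.42), SOCS3 (1.32), SNAI2 (1.19), AREG (1.18), TUBA1A (1.12), ITGA6 (1.10), BOK (0.85), PERP (0.79), KLF11 (0.78), PNO1 (0.55) and EGFR (0.33). The HCC827 level of FOSB was highest in acute replicate 3, as given above.

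Among glycolysis and hypoxia genes the lower values were PFKFB4 (-2.10), SLC2A1 (-1.81), PGK1 (-1.01) and LDHA (-0.94), and among mitosis genes NUF2 (-0.81) and CCNA2 (-0.55). The other values of -2 or below were STC1 (-3.61), SGK2 (-3.61), KRT16 (-3.39), DDIT4 (-3.13), CLDN2 (-2.54) and FGFBP1 (-2.36). CLDN2 averaged at most 1.23 CPM in any line. The rest were SNAI1 (-1.56), TP53INP1 (-1.52), PHGDH (-1.41), ALPP (-1.30), PIK3IP1 (-1.24), KRT8 (-1.23), CENPP (-1.11), CALCOCO1 (-0.94), SEC61G (-0.91), MXD4 (-0.89), KRT18 (-0.81), GCLM (-0.64), TUBA1B (-0.62), FTH1 (-0.45), HSP90AA1 (-0.44) and YAP1 (-0.30). SFTPA2 (4.09), H3C14 (-4.74), PTGS1 (-4.09) and AC011462.1 (-3.80) were called too, but in each a group of another line was at 0, so the fitted size depends on the prior count. With each HCC827 library left out in turn, 44 of the 65 differences stayed called and 21 did not without at least 1 library: EGFR, AREG, DUSP6, SPRED1, FOSB, CCNA2, NUF2, PIK3IP1, PNO1, CALCOCO1, SFTPA2, SNAI2, YAP1, GCLM, FGFBP1, ALPP, PTGS1, H3C14, AC011462.1, HSP90AA1 and TUBA1B. Without acute replicate 3, FOSB was at 1.59 (edgeR adjusted p = 0.374) and DUSP6 at 0.61 (edgeR adjusted p = 0.504). Against H1975 alone 36 of the 65 were not called, against HCC2935 alone 24 and against PC9 alone 12.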

How the results depend on the processing

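The number of genes called stayed within 1.5 times 5817 under DESeq2, other size factors, other filters, limma on log2 TPM and larger fits, and at an adjusted p under 0.01 it was 3564 (1611 higher, 1953 lower). Leaving out 1 HCC827 library at a time gave 4192 to 5768 genes called, 1923 to 2735 higher, 2269 to 3033 lower and 1589 to 2124 changed at least 2-fold, with the fewest without acute replicate 2. Fewer samples enter these fits. The number of genes with a different response was 1083 at an adjusted p under 0.01, 4200 against PC9 alone and 1254 against H1975 alone, and 1635 to 2658 with 1 HCC827 library left out.

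The labels give both groups replicate numbers 1 to 3, without saying whether equal numbers share a culture or day. Deviations of same-numbered libraries had a mean correlation of -0.135 over 3 pairs. Pairs of unlike number ran from -0.117 to 0.249, the latter for DMSO replicate 2 with acute replicate 3. With 3 libraries per group these values cannot show which libraries, if any, were handled together. With the replicate number as a block, 4695 genes were called (2228 higher, 2467 lower), 1738 of them at least 2-fold, and 1743 genes differed from the other lines.

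Of 2201 fold changes of named genes under the alternatives, 2135 kept their direction and their side of the threshold, 42 lost the call, 17 gained it and 7 changed sign, none of the last being called in all libraries together. Those were SPRY2 (-0.04 without DMSO replicate 3, with a range of -0.04 to 0.31 over single libraries left out), IER3 (0.03 with library size alone, and -0.17 to 0.02 over single libraries left out), FOS (-0.15 to 2.82) and EGR1 (-2.20 to 1.91, -0.31 with limma on log2 TPM and -0.34 with the block). SCD was not called in the fit of 24 libraries (edgeR adjusted p = 0.056). The cause was not tested. Genes of a few counts, such as THSD7A, are limited by depth.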

Other observations

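Further groups of genes were collected by symbol after the values had been seen, so they carry no test as groups, and their members' calls are those of the edgeR test above. Of 37 proteasome subunits tested, the parts of the main protein-degrading complex, 31 fell and 2 rose (median log2 fold change -0.69 against 0.01 for all genes tested). PSMD14, the deubiquitinase of its lid, read 122, 139 and 131 CPM in the vehicle against 61.0, 47.1 and 61.4 CPM with osimertinib (-1.21, edgeR adjusted p = 9.46e-05), while the immunoproteasome subunits PSMB8 (0.54) and PSMB10 (0.80) were those that rose. Among chaperones, 7 of 8 CCT chaperonin subunits and 15 of 19 heat shock proteins tested fell, with none rising in either group (medians -0.72 and -0.86). HSP90AA1, the inducible cytosolic HSP90, fell by 1.66 on the log2 scale, from 3164 ± 629 to 1003 ± 59.6 CPM (SD, n = 3 per group). Of 12 tubulins tested 7 fell and 1 rose: TUBA1B, the most abundant of those named here, read 2830, 3453 and 2592 CPM against 470, 425 and 594 CPM (-2.58, edgeR adjusted p = 6.36e-06), and its paralog TUBA1A read 26.5, 23.8 and 21.5 CPM against 152, 141 and 128 CPM (2.55, edgeR adjusted p = 4.38e-06). The 2 share much of their sequence, so reads could be divided between them in error.

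Respiratory chain and ATP synthase subunits fell for 44 of 75 genes tested and rose for none (median -0.43). The clustered protocadherins are adhesion genes, and some of their transcripts share exons and so cannot be counted independently. They rose for 34 of 50 and fell for none (median 1.18). PCDHGB7 was at 1.24, 2.14 and 3.08 CPM in the vehicle against 12.2, 14.5 and 12.2 CPM with the drug (2.57, edgeR adjusted p = 0.000235). Of 10 matrix metalloproteinases tested 5 rose and none fell, MMP13 by 3.23 and MMP7 by 2.52 (edgeR adjusted p = 0.000267 and 0.001). The share called, 50%, lay near the 42.3% of all genes tested, so this count is no result about the group.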
